A study of Mus musculus with 2 samples.

Results

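The S100 genes encode small calcium-binding proteins, and 8 of them were followed here in injured kidneys. Wild-type mice were set against EST knockout mice, which lack estrogen sulfotransferase, the product of Sult1e1 and the enzyme that inactivates estrogens by adding sulfate. The genes were S100a1, S100a4, S100a6, S100a8, S100a9, S100a10, S100a11 and S100a13. They were chosen by name, with earlier results of these data known. Each was read through the probe sets to which the platform annotation gives a single gene symbol. Such a probe set existed for 7 of the 8 genes, 10 probe sets in all of the 45101 on the array, where 18194 genes had one. The only probe set for S100a11 carried several gene symbols, including a pseudogene of S100a11, so S100a11 is named here without a value. The WT AKI sample was a pool of 180 mg of kidney from 3 male C57BL/6 wild-type mice, and the EST KO AKI sample a pool of 124 mg from 6 male C57BL/6 EST KO mice, where AKI stands for acute kidney injury. Mice of both groups were 8 weeks old, had undergone 30 min of warm bilateral renal ischemia with reperfusion, and were killed 24 h later. No uninjured kidney was analysed here, so every value compares injured mice with injured mice. The labels disagree on the tissue of the EST KO AKI pool, as described below. How the EST allele was disrupted, and in which cells, is not given in the sources used here.

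Most S100 proteins are dimers whose subunits carry EF-hands, the helix-loop-helix folds that hold calcium, and many of them expose a binding surface for a partner protein when calcium rises. S100A8 and S100A9 pair to form calprotectin, which fills the cytosol of neutrophils and is released by activated or dying cells as a danger signal. S100A10 is the exception in the family, since it no longer binds calcium and works as the light chain of annexin A2 at the plasma membrane. S100A6, S100A11 and S100A10 are also made by epithelial cells, and S100A4 is widely used as a marker of fibroblasts and some leukocytes.

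Each pool was read on 1 array, so there was no replicate and no test between the genotypes, and precision is limited by this number of arrays. Values are the deposited linear intensities, and ratios are log2 of EST KO AKI over WT AKI. Background was set per array at the level below which 95% of 129 probe sets of mostly silent receptor and keratin-associated genes lay, 676.1 in the WT AKI pool and 638.3 in the EST KO AKI pool. A gene was counted as measured when it exceeded background in at least 1 pool, which 7492 genes did. Sult1e1 itself lay under background in both pools (472.7 and 17.2), so it did not check the genotype label. The treatment text of the labels names liver for the EST KO AKI pool where the other fields name kidney. Albumin (Alb), the defining hepatocyte transcript, lay below background in both pools at 487.9 and 522.3, and all 12 proximal tubule markers read were above background in both. Of 9 hepatocyte markers on the array, 5 lay below background in both pools, Alb included. Cyp2e1 (11569 and 20655), Cps1 (730.7 and 811.7) and Apoh (861.6 and 874.7) exceeded it in both, and Apob (778.6 and 475.1) in the WT AKI pool alone. Whether liver entered the EST KO AKI pool was not tested.

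All 6 measured S100 members were lower in the EST KO AKI pool than in the WT AKI pool. S100a8 was 3.22-fold lower, and the other 5 were between 1.20-fold and 1.43-fold lower. The remaining gene with a probe set, S100a4, lay below background in both pools and has no ratio. Of all measured genes 54.6% were lower in the EST KO AKI pool by any amount and 1.4% were at least 2-fold lower, against 6 of 6 and 1 of 6 among the S100 members. At least 2-fold higher were 3% of all measured genes and 0 of 6 members. Because the members were chosen with earlier results of these data known, these counts are a description and test nothing. The median log2 ratio of the 6 members was -0.51, beside -0.05 over all measured genes. With 1 array a genotype, an error could be had only from genes read more than once. In 1663 genes that had 2 probe sets exceeding background on each array, the log2 ratios of these probe sets differed with an SD of 0.39, which corresponds to an SD of 0.28 for a single probe set. S100a8, at -1.69, differed from 0 by more than 2 such SDs (0.55), and none of the other 5 members did in the values as deposited. After quantile normalization S100a6 did, at -0.66. The SD pools genes of all levels and was not estimated for dim probe sets, whereas S100a8 read only 1.02 times background in the EST KO AKI pool. Measurement error is therefore not excluded for S100a8. This SD also leaves out any error shared by the probe sets of an array, and the spread between mice, which is unknown. In bulk tissue, fewer cells of a type and less RNA per cell cannot be told apart.

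**Figure D1:**
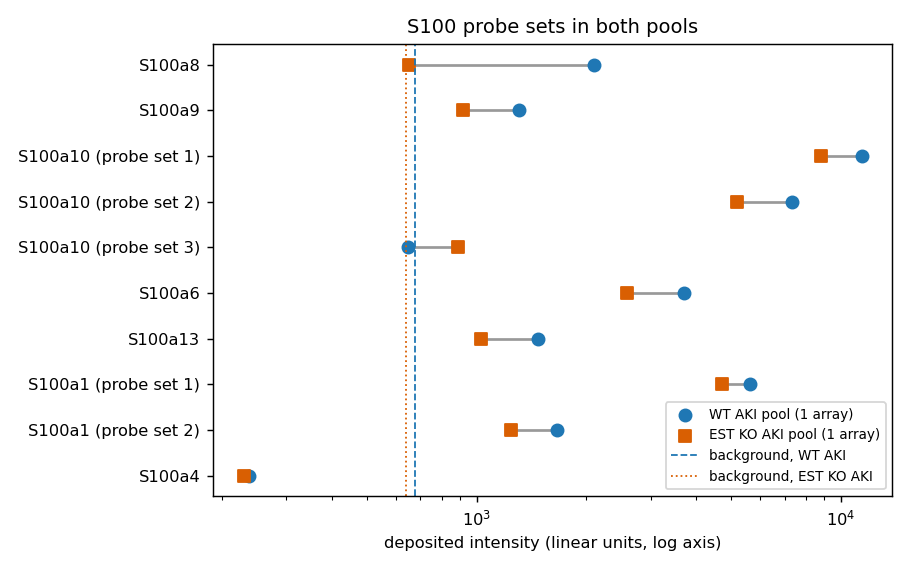
Deposited intensity (log axis) of every S100 member probe set in the WT AKI pool (circles) and the EST KO AKI pool (squares), 1 array each, with the background of each array as a vertical line. The squares lie to the left of the circles for all probe sets above background in both pools, S100a8 drops from 2093 to 649.3, and the dimmest probe set of S100a10 runs the other way.

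S100a8 encodes the smaller calprotectin subunit. Its probe set read 2093 in the WT AKI pool and 649.3 in the EST KO AKI pool, a log2 ratio of -1.69. The WT value stood 3.09 times above the background of its array, and the EST KO value only 1.02 times, so that the level in the EST KO AKI pool can hardly be told from background. Only 12 measured genes, 0.16%, had a ratio this low or lower, S100a8 included. Among the 500 measured genes closest to it in mean level, S100a8 had the lowest ratio. Its probe set is of a kind whose probes can match more than 1 transcript, and no other probe set reads the gene.

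S100a9 encodes the larger calprotectin subunit and is the neighbour of S100a8 on chromosome 3. It read 1303 in the WT AKI pool and 916.9 in the EST KO AKI pool, above background in both, and was 1.42-fold lower in the latter (log2 ratio -0.51). Ratios this low or lower were found for 9.98% of measured genes. The subunits differed unequally, and their log2 ratios lay 1.18 apart. Among the 1663 genes with 2 probe sets, 19 (1.14%) had probe sets whose ratios lay as far apart as this. Because the 2 subunits were read near background, at 1.02 and 1.44 times it in the EST KO AKI pool, the gap rests on dim values.

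The 250 bases before the start of both calprotectin genes are shown because these genes are neighbours, are co-expressed in myeloid cells, and included the member with the largest difference. They were taken from RefSeq, build GRCm38.p6, and lie at chr3:90668821-90669070 on the plus strand for S100a8 and at chr3:90695722-90695971 on the minus strand for S100a9. Capitals mark matches, on either strand, to the TATA box (TATAAA) and to a C/EBP motif (TTNNGNAA), the site of a factor family known for myeloid genes.
S100a8: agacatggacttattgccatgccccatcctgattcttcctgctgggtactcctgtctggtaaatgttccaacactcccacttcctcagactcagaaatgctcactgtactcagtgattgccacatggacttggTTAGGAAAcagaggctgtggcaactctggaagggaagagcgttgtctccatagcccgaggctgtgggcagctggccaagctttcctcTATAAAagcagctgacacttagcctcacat
S100a9: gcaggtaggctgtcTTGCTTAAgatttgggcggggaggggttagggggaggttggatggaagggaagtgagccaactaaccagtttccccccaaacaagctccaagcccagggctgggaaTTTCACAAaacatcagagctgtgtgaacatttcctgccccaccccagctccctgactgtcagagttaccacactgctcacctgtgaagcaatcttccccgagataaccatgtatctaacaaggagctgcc
S100a8 held a TATA box 30 bases and a C/EBP match 117 bases before its start, and S100a9 held C/EBP matches 236 and 130 bases before its start. No capitals overlap between the motifs. Promoter windows were available for 7 members (all but S100a10), and S100a8 and S100a9 were the 2 of these 7 with a C/EBP match. Such a match is common, since 36.8% of all 32851 promoter windows of that length hold one. The share of 2 in 7 is no larger than that. A TATA box stood in the windows of S100a8 and S100a4 and in 12.4% of all windows. AP-1 matches (TGANTCA) were present for S100a11 alone, at 2 places, and in 6.75% of all windows, and an NF-kB match was found in none of the 7 and in 7.25% of all windows. A match is a description of the letters in these windows, not evidence of a bound site.

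S100a10 encodes the annexin A2 light chain p11, which also carries ion channels to the cell surface and binds plasminogen and its activator. Its brightest probe set read 11392 in the WT AKI pool and 8835 in the EST KO AKI pool, which is 1.29-fold lower in the latter (log2 ratio -0.37). A second probe set read 7331 and 5183, 1.41-fold lower. These 2 agreed closely, with log2 ratios 0.13 apart. The remaining, dim probe set ran the other way: it lay below background in the WT AKI pool (647.5) and at 886.3 in the EST KO AKI pool, at least 1.31-fold higher. The mean log2 ratio of the 3 probe sets was -0.16.

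S100a6 encodes calcyclin, which binds annexins and the ubiquitin-ligase adaptor calcyclin-binding protein and is raised in proliferating cells. Its single probe set gave 3698 for WT AKI and 2582 for EST KO AKI. Both values were more than 4 times background, and the log2 ratio was -0.52, a 1.43-fold difference. Ratios this low or lower were found for 9.57% of measured genes, so S100a6 lay in the lower tail of all genes without being extreme.

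S100a13 encodes a protein that takes part in the release of FGF1 and interleukin 1 alpha, which leave cells without a signal peptide. It read 1469 and 1029, WT AKI then EST KO AKI, and was 1.43-fold lower in the EST KO AKI pool (log2 ratio -0.51). S100a1, best known as a regulator of calcium cycling in muscle, overlaps the start region of S100a13 in RefSeq, on the other strand. Its brighter probe set read 5635 and 4704, 1.20-fold lower (log2 ratio -0.26), and its dimmer one 1659 and 1237, 1.34-fold lower. The probe sets of S100a1 differed by 0.16 in log2 ratio, less than the SD of 0.39. Of all measured genes, 25.7% had a ratio as low as the brighter S100a1 probe set.

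S100a4, also known as fibroblast-specific protein 1, read 237.1 in the WT AKI pool and 229.2 in the EST KO AKI pool. Both values were near 0.35 of background, 0.351 and 0.359, and nearly equal to each other. Its level was not detectable above background in either pool.

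**Figure D2:**
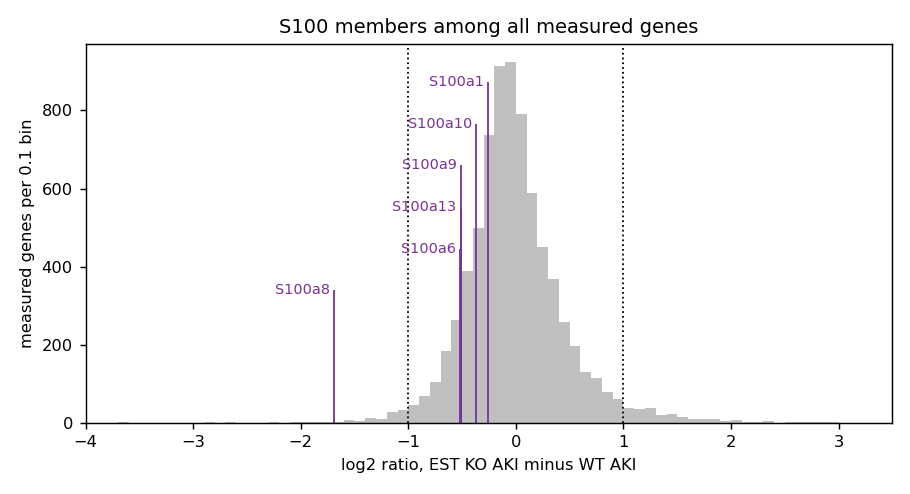
Histogram of the log2 ratio (EST KO AKI minus WT AKI, x axis) of 7492 measured genes in bins of 0.1 (y axis, genes per bin), with the 6 measured S100 members as labelled lines of arbitrary height and dotted lines at 2-fold. S100a8 at -1.69 stands alone beyond 2-fold, and the other 5 members lie between -0.52 and -0.26, on the lower flank of the distribution.

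In RefSeq the members lie in 2 groups on chromosome 3. From S100a1 to S100a9 there are 12 protein-coding genes in a row, all of the S100 family, and S100a11 and S100a10 follow as direct neighbours after 56 other coding genes. Members of both groups were lower in the EST KO AKI pool: S100a1, S100a13, S100a6, S100a8 and S100a9 of the first and S100a10 of the second. A gene of the first run that is no member, S100a5, stands between S100a4 and S100a6 and was not lower. It read 996.0 and 1093, 1.10-fold higher in the EST KO AKI pool (log2 ratio 0.13). This ratio is smaller than the SD of 0.28 for a single probe set. The values were only 1.47 and 1.71 times background, so the direction of S100a5 is not settled.

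Other S100 genes did not all share the direction of the members. The list of other S100 genes had 6 with a probe set, of which 3 were measured, 1 of them lower and 2 higher. S100a16, a widely expressed family member from the same run on chromosome 3, read 3444 and 2641 at its brighter probe set (log2 ratio -0.38) and 3019 and 1770 at the other, 1.30-fold and 1.71-fold lower. S100g, which encodes the vitamin D-dependent calbindin of calcium-transporting epithelia and lies on the X chromosome, read 3328 and 5744, 1.73-fold higher. S100a3 (259.6 and 206.5), S100a14 (124.1 and 99.1) and S100b (139.0 and 84.4), an astrocyte and glial protein, were below background in both pools. S100a7l2, which was not on the list and was chosen after its values were seen, was below background as well (14.3 and 17.6). No value is given for S100a2, S100a7a and S100z, because no probe set with a single gene symbol was found for them.

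The list of S100 partners and receptors held 18 genes, of which 12 were measured, 9 lower and 3 higher, with a median log2 ratio of -0.32. Only 1 of the 12 was at least 2-fold lower, Ahnak, the giant scaffold that binds the S100A10 and annexin A2 complex, at 4756 and 2330 (2.04-fold). Anxa2, the annexin that S100A10 binds, read 11518 and 7351, 1.57-fold lower. Plat, the tissue plasminogen activator, read 4432 and 2869, 1.54-fold lower. Among annexins that bind other S100 proteins, Anxa1, a partner of S100A11, was 1.32-fold lower (1780 and 1348) and Anxa6 1.37-fold lower (1640 and 1195).

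Measured partners of the remaining members differed by 1.12-fold to 1.29-fold, some in each direction. Fgf1, the growth factor exported with S100A13, read 1917 and 1485, 1.29-fold lower. Cacybp, the calcyclin-binding protein, read 1441 and 1282, 1.12-fold lower, and Sugt1, an adaptor bound by S100A6, 1716 and 1458, 1.18-fold lower. Myh9, the non-muscle myosin heavy chain bound by S100A4, was 1.17-fold higher (5150 and 6003), and Ppp5c, a phosphatase activated by S100 proteins, 1.13-fold higher (1451 and 1638). Of the calprotectin receptors, Bsg (basigin) was 1.16-fold higher at 5374 and 6231, and Emb (embigin) 1.20-fold lower at 1849 and 1543. Tlr4 (356.4 and 202.9) and Ager, the receptor RAGE (46.5 and 31.9), lay below background in both pools, as did Syt1, Il1a and Plg.

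Markers of cells known to make S100 proteins were read beside these values. Of 15 neutrophil markers on the array, S100a8 and S100a9 not among them, 4 were measured, all lower, with a median log2 ratio of -0.21 and none at least 2-fold lower. For 3 of the 4 the direction was fixed in advance, because they counted as measured only through the WT AKI pool. They were held at background in the EST KO AKI pool, so that median is a bound, and without the floor it was -0.49. The 3 were Mmp8, a neutrophil collagenase, at 908.9 and 632.7 (at least 1.42-fold lower), the cytokine gene Il1b at 776.8 and 550.9, and the gelatinase gene Mmp9 at 697.7 and 498.5. Only Ngp, at 892.0 and 815.9, exceeded background in both pools, with a log2 ratio of -0.13. The other 11, with Mpo (534.7 and 532.8), Elane (139.9 and 127.7), Csf3r (662.3 and 520.7) and Cxcr2 (141.8 and 150.6) among them, lay below background in both pools. The summed intensity of the 15 was 7185 in the WT AKI pool and 5971 in the EST KO AKI pool, of which the 4 measured genes made up 3275 and 2498, so that most of each sum is signal below background. Monocyte and macrophage markers were lower for 7 of 8 measured genes (median -0.35, and -0.63 without the floor), 2 of them at least 2-fold: Ctss, a lysosomal protease, at 1446 and 491.2 (at least 2.27-fold) and Cd14, the lipopolysaccharide co-receptor, at 5159 and 2444 (2.11-fold). Tyrobp, a myeloid adaptor, was 1.88-fold lower (1392 and 739.5). C1qb was higher, by 1.07-fold (1274 and 1369). Of the 8 genes, 3 exceeded background only in the WT AKI pool, Ctss among them, which fixed their direction. The median of those above background in both pools was -0.23. The part of myeloid cells in the S100a8 and S100a9 values was not tested.

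Markers of fibroblasts and matrix were lower for 7 of 9 measured genes (median -0.50), led by Tnc (tenascin C, at least 3.31-fold) and Vim (vimentin, 2.05-fold). Dcn was 1.20-fold higher (2402 and 2890), and Fn1 was nearly level (901.4 and 917.3). Endothelial markers were lower for 9 of 9 (median -0.57), with Nos3 at least 1.93-fold and Eng 1.68-fold lower. Tubular injury genes were lower for 7 of 8 (median -0.77), with Krt20, a keratin of damaged tubules, 2.65-fold and Lcn2, the gene of the injury marker NGAL, 2.08-fold lower. Proximal tubule genes went the other way for 12 of 12 (median 0.77). The loop and collecting duct list (8 measured, median 0.15) was mixed, with 5 higher and 3 lower. Its log2 ratios ran from -0.65 for Aqp2 to 1.19 for Slc12a1. The hepatocyte list (4 measured, median 0.09) had 3 higher and 1 lower, from -0.29 to 0.84. The direction was again fixed for genes above background in 1 pool only. These were 1 of the 9 fibroblast genes (Tnc), 2 of the 9 endothelial genes and 2 of the 8 tubular injury genes. The loop and collecting duct list and the hepatocyte list held 1 such gene each. Which of these cells the S100 differences come from was not tested.

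**Figure D3:**
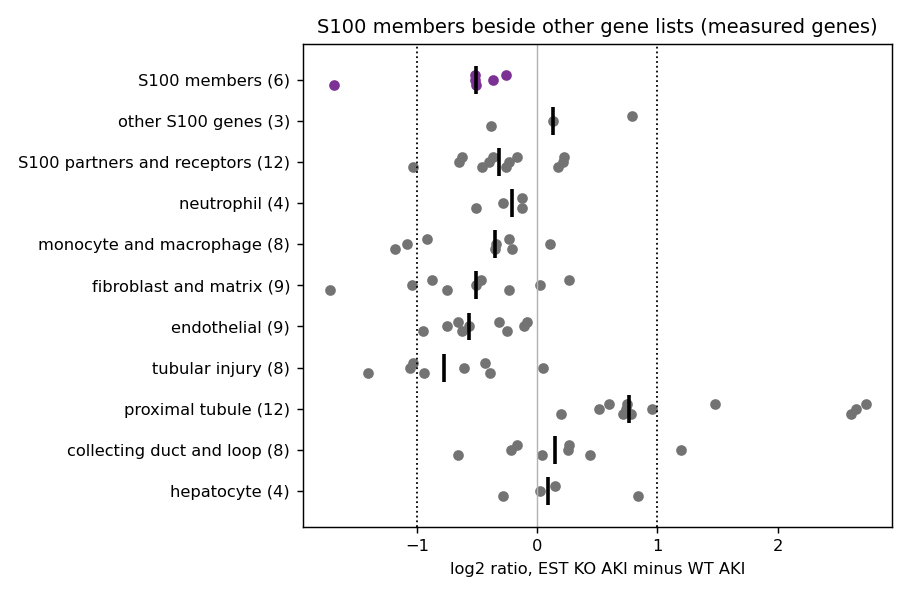
Log2 ratio (EST KO AKI minus WT AKI) of each measured gene (points, spread vertically only for legibility) in the S100 members and in 10 other lists, with the number of measured genes in brackets, the list median as a vertical bar and dotted lines at 2-fold. The medians of the S100 members (-0.51) and of the partner, neutrophil, monocyte and macrophage, fibroblast, endothelial and tubular injury lists lie below 0, whereas all 12 proximal tubule genes lie above 0. Genes above background in 1 pool only are drawn at their bound, with a direction fixed by the filter.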

How the data were processed

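The authors deposited 1 linear intensity per probe set and array; from the values, each array had been scaled to a mean of 500.0 after the lowest and highest 2% were dropped. The scanner software and summary method are not named in the labels or files. Values were used without further scaling. Of the probe sets, 34958 had 1 gene symbol in GEO's platform annotation, 932 several and 9211 none; symbols were updated by Entrez ID against RefSeq GRCm38.p6 (34754 matched). A gene was read from its probe set above background with the highest mean log2 value. Values under background were held at it, so such folds are bounds ("at least"). Ratios, counts and medians were computed in Python 3.11.15 with pandas 2.3.3, and ratios and 2-fold calls were tested on simulated data. The simulation changed only genes brighter in the WT AKI pool than S100a8, S100a9 and S100a13, by larger folds than any member showed. List medians were not simulated. No test between genotypes was possible. Named were all members, all measured relatives and partners, and up to 4 genes with the largest absolute ratio per other list. Alb, the named neutrophil genes below background, Sult1e1, C1qb, Dcn and Fn1 fall outside that rule. The members and the 10 lists were chosen with earlier results of these data known.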

Additional observations from a re-analysis of the deposited data

How the results depend on the processing

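Under the 8 alternatives (median centring, quantile normalization, a 75th percentile background, no floor, a pseudocount of 500, the mean of a gene's probe sets, no _x_at, _s_at and _a_at probe sets, and above background in both pools), every ratio that a measured S100 member had stayed below 0. For several settings this was fixed in advance. The 6 members exceeded background in both pools, so the settings of background and floor left their ratios unchanged. A pseudocount cannot reverse a direction. S100a8 ranged from -1.69 to -1.17 (pseudocount), S100a6 from -0.66 (quantile normalization) to -0.45 (pseudocount), S100a10 from -0.54 (quantile normalization) to -0.16 (mean of probe sets), and S100a1 from -0.46 (quantile normalization) to -0.24. The member median ranged from -0.52 to -0.36, and was -0.51 without S100a8, an alternative added after the data were seen. The number of members at least 2-fold lower was 1, except without _x_at, _s_at and _a_at probe sets, where it was 0 of 4 because the only probe sets of S100a8 and S100a6 are left out. No list median changed sign, but without the floor the neutrophil median went from -0.21 to -0.49 and the monocyte and macrophage median from -0.35 to -0.63, and without the _x_at, _s_at and _a_at probe sets the neutrophil median went to -0.13 and the fibroblast and matrix median from -0.50 to -0.87. Dim signal limits S100a8, S100a9 and S100a13 most. No replicate could be left out, and no paired analysis was possible because each genotype has 1 array.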
